A study of Mus musculus with 12 samples.

Results

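The mitochondrial carrier family was examined in left ventricular RNA of 16-week-old WT and cmGch1 KO mice, with 6 libraries of each genotype. Members were the protein-coding genes of GENCODE M21 whose symbol begins with Slc25a, together with Ucp1, Ucp2 and Ucp3, after leaving out Slc25a11, Slc25a12, Slc25a13, Slc25a20 and Slc25a42. This gave 45 genes of the 26921 in the count table. Both genotypes carried loxP-flanked Gch1 alleles (Gch1 flox/flox), and cmGch1 KO mice carried in addition a heterozygous Cre recombinase transgene driven by the α-myosin heavy chain promoter, which is active in cardiomyocytes. A group with Cre alone was not analysed here. Gch1 encodes GTP cyclohydrolase, the first and rate-limiting enzyme of tetrahydrobiopterin synthesis.

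Mitochondrial carriers are small proteins, most of them in the inner mitochondrial membrane, that exchange a metabolite of the matrix for one of the intermembrane space. Through them the heart exports the ATP made by oxidative phosphorylation and takes up the ADP and phosphate from which it is made. Other members carry amino acids, tricarboxylic acid cycle intermediates, nucleotides, cofactors and iron, and uncoupling proteins are known for letting protons or anions cross without ATP synthesis. The 45 genes were described in 7 classes by substrate, and a class of genes without an assigned substrate was kept apart.

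Ucp2, an uncoupling protein found in many tissues, was higher in cmGch1 KO than in WT hearts, and Slc25a34, a carrier without an assigned substrate, was lower. Both genes are shown here with the 250 bases before their start in the RefSeq annotation of GRCm38.p6, because they were the members whose RNA differed at an FDR under 0.05, and Ucp3 is shown because it lies directly beside Ucp2. Capitals mark matches on either strand to AGGTCA, a nuclear receptor half-site, to GGGCGG, a GC box, or to CCAAT, the box of that name. CACGTG, an E-box, was searched for as well. No match overlapped another. The sequences run 5′ to 3′ on the strand of the gene, and the windows are chr7:100493108-100493357 (plus strand) for Ucp2, chr4:141623835-141624084 (minus strand) for Slc25a34 and chr7:100472741-100472990 (plus strand) for Ucp3.
Ucp2: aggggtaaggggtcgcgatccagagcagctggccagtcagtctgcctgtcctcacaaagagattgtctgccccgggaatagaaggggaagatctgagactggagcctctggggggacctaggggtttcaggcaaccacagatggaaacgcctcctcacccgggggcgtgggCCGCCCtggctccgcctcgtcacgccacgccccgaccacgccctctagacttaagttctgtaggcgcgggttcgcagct
Slc25a34: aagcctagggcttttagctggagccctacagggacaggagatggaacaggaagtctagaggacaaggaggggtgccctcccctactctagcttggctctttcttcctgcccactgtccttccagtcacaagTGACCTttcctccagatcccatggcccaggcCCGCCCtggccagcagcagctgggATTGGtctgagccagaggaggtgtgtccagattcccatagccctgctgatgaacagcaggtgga
Ucp3: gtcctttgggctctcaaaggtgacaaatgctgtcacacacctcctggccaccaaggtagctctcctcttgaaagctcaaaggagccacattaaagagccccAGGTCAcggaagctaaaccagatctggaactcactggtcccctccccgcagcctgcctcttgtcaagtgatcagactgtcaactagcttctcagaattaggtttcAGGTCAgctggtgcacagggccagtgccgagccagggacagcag

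The Ucp2 window had a GC content of 63.6% and 16 CpG dinucleotides. Its single match was an inverted GC box that began 79 bases before the start. The Slc25a34 window had a GC content of 58.4% and 1 CpG. It held a half-site 119 bases, a GC box 88 bases and a CCAAT box 64 bases before the start, each of them inverted. The Ucp3 window held 2 half-sites, 149 and 44 bases before the start, and none of the other motifs. Of 32851 windows of the same length in the table, 14.0% held the half-site, 6.02% the E-box, 32.7% the GC box and 33.8% the CCAAT box. The median window had a GC content of 52.4% and 6 CpG. More CpG than in the Ucp2 window were found in 23.5% of the windows, and fewer than in the Slc25a34 window in 7.90%. These matches describe letters in the windows and not bound sites. Windows were found for 34 of the 45 members.

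Gch1 was examined first as a check of the genotypes. Its level was 10.7 ± 0.974 in WT libraries and 5.48 ± 0.855 in cmGch1 KO libraries (SD, n = 6 each), in cpm, counts relative to a library size scaled by TMM. This left 51.4% of the WT level, and the genotypes did not overlap. The counts are per gene, and the tissue also holds cells in which the promoter of the Cre is not active. Totals were 19921398 to 37917806 counts per library. In cmGch1 KO replicates 2 and 3, Xist was at 86.7 and 99.1 cpm and the Y-linked genes had 0 counts, whereas the remaining 10 libraries had Xist at 0.234 cpm or less and a Y-linked sum of 167 to 192 cpm. These 2 libraries also had the lowest share of mitochondrially encoded counts, 14.9% and 16.1%, against 18.3% to 22.9% elsewhere. No WT library had this pattern of Xist and Y-linked counts, so sex-linked expression was not balanced between the genotypes. The labels give no sex. The members with an unadjusted p under 0.05 and the others named with a fold change are given with and without these 2 libraries. The cardiomyocyte markers Myh6, Tnnt2, Actc1, Ryr2 and Myl2 summed to 45029 to 49065 cpm in WT and 39796 to 47693 cpm in cmGch1 KO libraries. Of the adipocyte markers, Adipoq, Plin1, Cidec and Lep were at or below a mean of 0.740 cpm in both genotypes, and Cidea averaged 26.4 (WT) and 31.3 cpm (cmGch1 KO). In tissue RNA, fewer cells of a type and less RNA per cell cannot be told apart.

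Of the 45 members, 33 had a cpm over 3 in at least 6 libraries and were tested. For comparing genes with each other, levels were divided by the length of the union of their annotated exons. This union can be longer than any 1 transcript, so levels and ranks per length depend on the annotation. It was 2353 bases for Slc25a4, 5550 for Slc25a3 and 1646 for Slc25a5. Slc25a4, the ADP/ATP carrier of heart and skeletal muscle, was at 1988 cpm per kb over the 12 libraries. It was followed by the phosphate carrier Slc25a3 at 278 cpm per kb and by Slc25a5, the ADP/ATP carrier of proliferating and many other cells, at 153 cpm per kb. The class of adenine nucleotide and phosphate carriers held 89.5% of the summed cpm per kb of the family. Slc25a34 ranked next at 81.3 cpm per kb, ahead of Slc25a39, required for glutathione import into mitochondria, at 41.9 cpm per kb and of Ucp3, the uncoupling protein of muscle, at 24.1 cpm per kb.

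**Figure D1:**
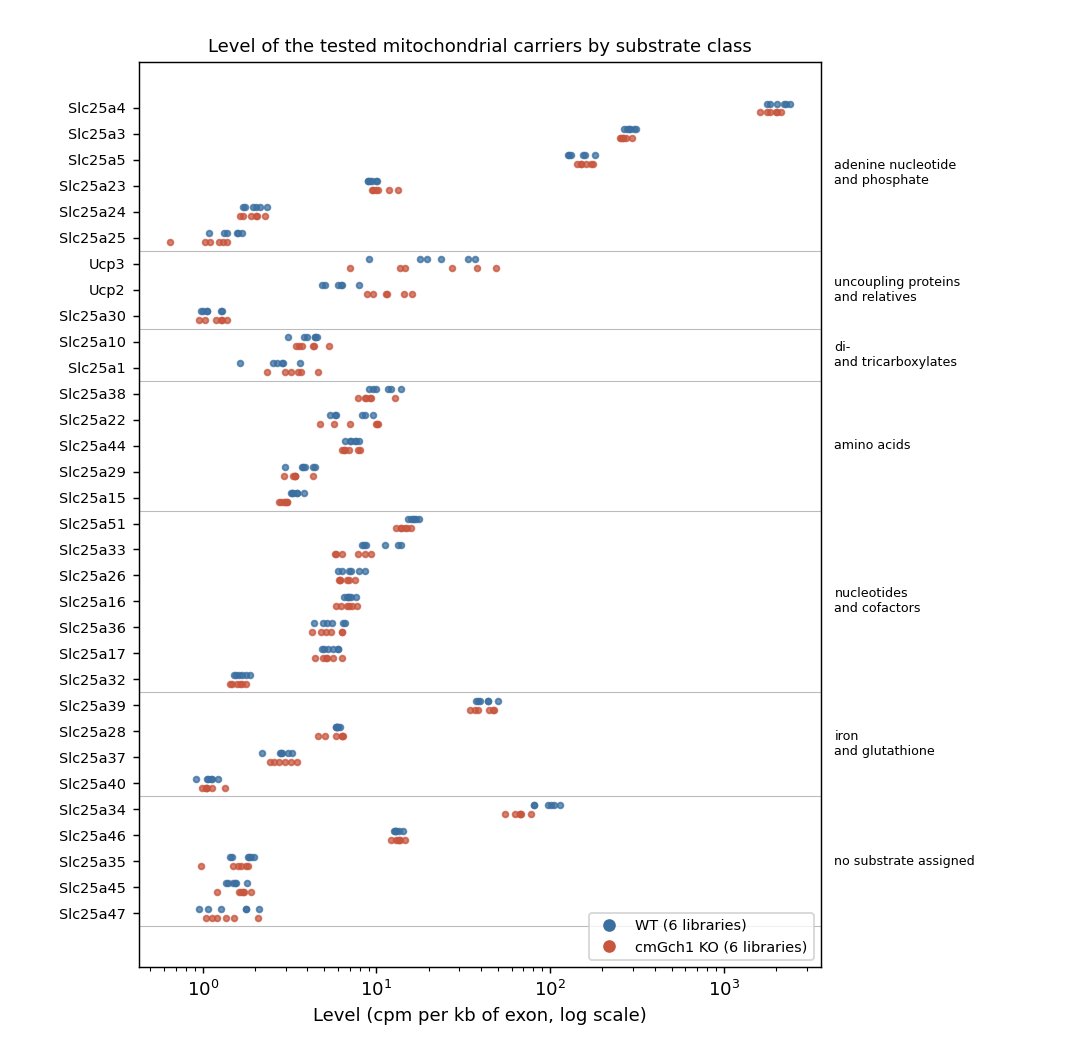
Level of the tested carriers (1 of the 33 is not shown) in each library, in cpm per kb of exon on a log scale, in WT (blue) and cmGch1 KO (red), grouped by substrate class. Slc25a4 stood highest, with a mean of 1988 cpm per kb, and the red points of Ucp2 and Slc25a34 lie apart from the blue points.

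In the comparison of the genotypes, 1.12% of the 11225 genes tested had an FDR under 0.05 (quasi-likelihood test of edgeR, adjusted by the Benjamini-Hochberg method), 0.445% lower and 0.677% higher in cmGch1 KO. Among the 33 tested members 1 was lower and 1 was higher, 6.06% in all. At an unadjusted p under 0.05, 5 members were lower and 1 was higher, where the background was 11.5% of all tested genes, 4.51% lower and 7.01% higher. Scaled by library size alone, 3 members were lower and 3 higher at this threshold, beside 2.10% and 13.3% of all tested genes. The higher members were then Ucp2, Slc25a1 and Slc25a23. Slc25a25 (unadjusted p = 0.0963 by edgeR) and Slc25a51 (unadjusted p = 0.0813) were no longer among the lower members. Without cmGch1 KO replicates 2 and 3, 3 of 34 tested members were lower and 1 higher, beside 2.63% and 4.49% of all tested genes. The libraries of the 2 genotypes did not overlap for 3 members (Ucp2, Slc25a34 and Slc25a15), against 1.87% of all tested genes (0.802% lower and 1.07% higher). The log2 fold change was below 0 for 21 members and above 0 for 12, with a median of -0.04 beside -0.01 over all tested genes, of which 53.3% were below 0. Scaled by library size alone, 12 members were below 0 and 21 above, with a median of 0.03. Over all tested genes the median was then 0.07, and 29.7% were below 0. The balance of signs over the family thus depended on the scaling, as did that over all tested genes. Of the 14 members followed through the settings, Slc25a39 changed sign with the scaling.

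**Figure D2:**
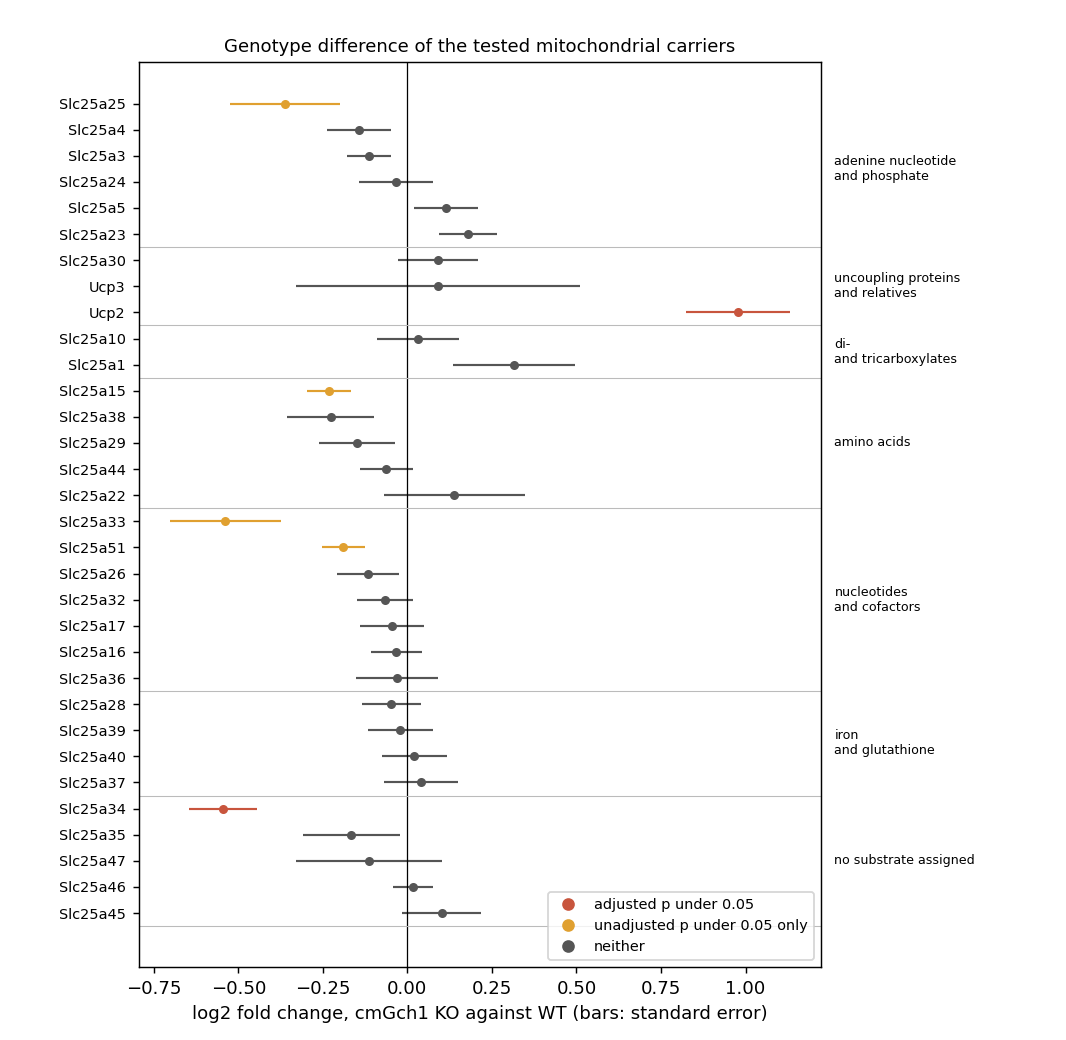
Log2 fold change of the tested carriers (1 of the 33 is not shown) in cmGch1 KO against WT hearts, with bars for the standard error, grouped by substrate class. Ucp2 lies farthest to the right at 0.98, Slc25a34 (-0.54) and Slc25a33 (-0.54) lie farthest to the left, and Ucp3 has the widest bar.

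Among the uncoupling proteins, Ucp2 (ENSMUSG00000033685) spans 100493337 to 100502020 on the plus strand of chromosome 7. Its level was lowest at 33.8 cpm, had a median of 42.9 cpm and was highest at 55.3 cpm in WT libraries, and ran from 61.9 cpm through a median of 79.9 cpm to 112 cpm in cmGch1 KO libraries. Every cmGch1 KO library was above every WT library. The means were 42.4 ± 7.72 and 83.5 ± 19.3 cpm (SD, n = 6 each), a 1.97-fold difference with a log2 fold change of 0.98 (standard error, SE, 0.15; adjusted p = 0.00612, edgeR's quasi-likelihood test), and the exact two-sided permutation test gave p = 0.00216, the smallest that 6 against 6 libraries allow. The level was highest in cmGch1 KO replicates 2 and 3, the libraries with high Xist, and without them the log2 fold change was 0.77 (SE 0.13, adjusted p = 0.0375 by edgeR). Ucp2 had an adjusted p under 0.05 in each of the 22 alternative settings examined, with a log2 fold change of 0.77 to 1.07.

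Ucp2 is also expressed in macrophages. The macrophage markers Csf1r, Cd68, Adgre1, C1qa and Cd163 summed to 92.9 to 111 cpm in WT libraries, with a median of 101 cpm, and to 108 to 129 cpm, median 119 cpm, in cmGch1 KO libraries. Their summed means differed by 1.17-fold, and 4 of the 5 had a log2 fold change above 0. None had an adjusted p under 0.05 (lowest 0.193 by edgeR). These 4 were higher at an unadjusted p under 0.05, beside 7.01% of all tested genes. The 5 fibroblast markers Pdgfra, Dcn, Col1a1, Tcf21 and Lum were each above 0, with a median of 0.12. Of the 5 endothelial markers Pecam1, Cdh5, Kdr, Tie1 and Egfl7, 3 were above 0, with a median of 0.04. Neither list held an adjusted p under 0.05 by edgeR. Of the 5 markers of pericytes and smooth muscle 3 were below 0, with a median of -0.06. Acta2 was higher by a log2 fold change of 0.66 (adjusted p = 0.00672 by edgeR), while Pdgfrb was at 0.12, Rgs5 at -0.06, Kcnj8 at -0.07 and Myh11 at -0.24, none with an adjusted p under 0.05. The part of these markers in the difference of Ucp2 was not tested. Dnajb13, which overlaps Ucp2 on the opposite strand, had at most 17 counts in any library.

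Ucp3 (ENSMUSG00000032942) lies on the same strand, and 6904 bases separate its end from the start of Ucp2. Its level ran from 28.4 cpm through a median of 67.4 cpm to 115 cpm in WT and from 22.2 cpm through a median of 65.6 cpm to 154 cpm in cmGch1 KO libraries. The genotypes overlapped over nearly their whole range. The log2 fold change was 0.09 (SE 0.42, adjusted p = 0.974 by edgeR), and it changed sign when 1 library was left out, to -0.08 without WT replicate 5, to -0.07 without cmGch1 KO replicate 2 and to -0.22 without cmGch1 KO replicate 4. Without cmGch1 KO replicates 2 and 3 it was -0.14. Per length of the union of exons (3135 bases for Ucp3, 6989 for Ucp2), Ucp3 was 1.88 to 6.66 times the level of Ucp2 in WT libraries. In cmGch1 KO libraries the ratio was 0.741 to 4.31, and the ranges overlapped. The ratio depends on these lengths. In cpm, without them, the means of Ucp3 and Ucp2 were 73.3 and 42.4 in WT and 78.1 and 83.5 in cmGch1 KO libraries. Ucp1, the uncoupling protein of brown fat, had 1 count in 1 library and 0 in the other 11, where 0 counts allow a level of up to 0.139 cpm in the smallest library, for counting error only. The relative Slc25a30, known from kidney, was tested and had an adjusted p of 0.867 by edgeR. Slc25a14 and Slc25a27, relatives known from brain, had 28 to 98 and 38 to 139 counts and were not tested.

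The spread of Ucp3 was the widest of the family. Around the genotype means its coefficient of variation was 54.5%, above that of 99.6% of all tested genes, whereas the median was 12.2% over the tested members and 13.04% over all tested genes. Within each genotype, replicates 2, 3 and 4 had the highest Ucp3, which was 73.6 cpm or more in WT and 85.5 cpm or more in the cmGch1 KO mice, and the other replicates were at 61.3 cpm or less and 45.7 cpm or less. The same 6 libraries had the highest Slc25a22, a mitochondrial glutamate carrier that was singled out after its values were seen. Its level there was at least 49.5 (WT) and 59.7 cpm (cmGch1 KO), and in the other libraries at most 34.9 and 42.1 cpm. Replicate numbers did not mark a shared litter or batch in the labels, and this pattern was not tested. The genotypes did not differ in Slc25a22 beyond their spread, with a log2 fold change of 0.14 (SE 0.21, adjusted p = 0.894 by edgeR) that was -0.07 without cmGch1 KO replicates 2 and 3.

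**Figure D3:**
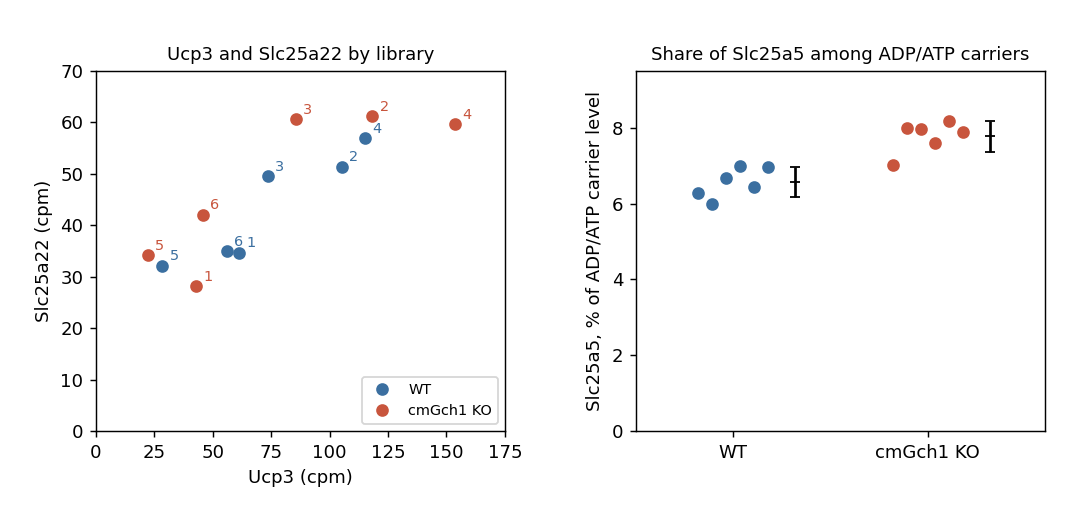
Left, Slc25a22 against Ucp3 in each library, both in cpm, with the replicate number beside each point (WT blue, cmGch1 KO red), where replicates 2, 3 and 4 of each genotype lie to the upper right of the others. Right, Slc25a5 as a percentage of the summed cpm per kb of Slc25a4, Slc25a5 and Slc25a31 in each library, with the mean and SD (n = 6), at 6.56% in WT and 7.77% in cmGch1 KO.

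Among the adenine nucleotide and phosphate carriers, 6 of 8 genes were tested, none had an FDR under 0.05, and 4 were below 0 with a class median of -0.07. Slc25a4 (ENSMUSG00000031633, minus strand of chromosome 8, 46206797 to 46211284) ran from 4147 cpm through a median of 4978 cpm to 5635 cpm in WT and from 3774 cpm through 4500 cpm to 4995 cpm in cmGch1 KO libraries. The genotypes overlapped, with a log2 fold change of -0.14 (SE 0.10, adjusted p = 0.651 by edgeR), and of -0.18 without the libraries with high Xist. Slc25a3 (ENSMUSG00000061904) had a log2 fold change of -0.11 (SE 0.06, adjusted p = 0.556 by edgeR), also -0.11 without these libraries. Slc25a5 (ENSMUSG00000016319, plus strand of chromosome X, 36795651 to 36798807) ran from 208 cpm through 235 cpm to 297 cpm in WT and from 235 cpm through 256 cpm to 289 cpm in cmGch1 KO libraries, and overlapped as well. Its log2 fold change was 0.11 (SE 0.09, adjusted p = 0.739 by edgeR), and 0.05 without the libraries with high Xist. Its processed pseudogene Slc25a5-ps had 0 counts in each library.

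The share of Slc25a5 in the ADP/ATP carriers, per length, combined these levels. It was 6.56 ± 0.39% (SD, n = 6) in WT, from 5.999% to 7.003%, and 7.77 ± 0.42% (SD, n = 6) in cmGch1 KO libraries, from 7.007% to 8.18%. The ranges lay side by side without overlap, with cmGch1 KO replicate 1 nearest to WT. Without cmGch1 KO replicates 2 and 3 the share was 7.67 ± 0.50% (SD, n = 4). This ratio was formed with the levels of both genes known and is given as a description without a test. The ratio of Slc25a4 to Slc25a3, per length, was 6.34 to 7.75 in WT and 6.40 to 7.71 in cmGch1 KO libraries and overlapped. Its size depends on the exon lengths used. In cpm, the means of Slc25a4 and Slc25a3 were 4909 and 1602 in WT and 4444 and 1481 in cmGch1 KO libraries. Slc25a31, the ADP/ATP carrier of the testis, had 1 to 14 counts.

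Slc25a23, Slc25a24, Slc25a25 and Slc25a41 carry ATP-Mg against phosphate. Slc25a25 (ENSMUSG00000026819, minus strand of chromosome 2, 32414487 to 32451445), one of those regulated by calcium, ran from 8.53 cpm through 11.6 cpm to 13.1 cpm in WT and from 5.06 cpm through 9.26 cpm to 10.8 cpm in cmGch1 KO libraries. The genotypes overlapped, and the log2 fold change of -0.36 (SE 0.16) had an unadjusted p of 0.0420 and an adjusted p of 0.406 by edgeR. Without the libraries with high Xist it was -0.33 (unadjusted p = 0.119 by edgeR). It overlaps Naif1 on the opposite strand, and the strand setting of the counting is not given in the sources used here. Slc25a23 and Slc25a24 were tested without a call, and Slc25a41 had 0 or 1 count per library.

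Of the nucleotide and cofactor carriers, all 8 were tested, none had an FDR under 0.05, and each was below 0, with a median of -0.06. Scaled by library size alone, 3 were below 0 and 5 above, where 29.7% of all tested genes were below 0. Slc25a33 (ENSMUSG00000028982, minus strand of chromosome 4, 149744036 to 149774277), a pyrimidine nucleotide carrier, ran from 15.6 cpm through 18.8 cpm to 26.2 cpm in WT and from 10.9 cpm through 13.3 cpm to 17.6 cpm in cmGch1 KO libraries. The upper cmGch1 KO libraries overlapped the lower WT libraries. Its log2 fold change of -0.54 (SE 0.16) had an adjusted p of 0.169 by edgeR and of 0.0475 by the DESeq2 Wald test. The antisense gene Gm13068 overlaps it. Slc25a51 (ENSMUSG00000045973, minus strand of chromosome 4, 45395923 to 45408766), the mitochondrial NAD+ carrier and the highest of its class at 15.4 cpm per kb, ran from 83.8 cpm through 89.9 cpm to 97.1 cpm in WT and from 71.1 cpm through 78.5 cpm to 87.4 cpm in cmGch1 KO libraries. Its log2 fold change was -0.19 (SE 0.06, unadjusted p = 0.00939, adjusted p = 0.211 by edgeR). Without the libraries with high Xist the log2 fold changes were -0.42 for Slc25a33 (unadjusted p = 0.0412 by edgeR) and -0.14 for Slc25a51 (unadjusted p = 0.0661). The other 6 genes include Slc25a36, a pyrimidine nucleotide carrier, Slc25a26 for S-adenosylmethionine, Slc25a32 for folate or FAD, Slc25a17 of peroxisomes and Slc25a16, linked to coenzyme A. The 6 had log2 fold changes between -0.12 and -0.03 and unadjusted p-values of at least 0.05.

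Of the 7 amino acid carriers 5 were tested, with 4 below 0 and a median of -0.15, and none had an FDR under 0.05. Slc25a15 (ENSMUSG00000031482, minus strand of chromosome 8, 22375551 to 22398597), the ornithine carrier of the urea cycle, ran from 18.04 cpm through 19.1 cpm to 21.6 cpm in WT and from 15.4 cpm through 16.6 cpm to 17.3 cpm in cmGch1 KO libraries. The genotypes did not overlap, and the exact two-sided permutation test gave p = 0.00216. Its log2 fold change of -0.23 (SE 0.07) had an adjusted p of 0.133 by edgeR and of 0.0360 by the DESeq2 Wald test, and was -0.22 (adjusted p = 0.503 by edgeR) without the libraries with high Xist. Slc25a38, the glycine carrier needed for haem synthesis, was the highest of the class at 10.2 cpm per kb and had a log2 fold change of -0.23 (SE 0.13, adjusted p = 0.558 by edgeR), and of -0.16 without the libraries with high Xist. Slc25a29 for basic amino acids and Slc25a44 for branched-chain amino acids were tested without a call. The glutamate carrier Slc25a18 had 1 to 13 counts and the ornithine carrier Slc25a2 had 0 to 4 counts.

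**Figure D4:**
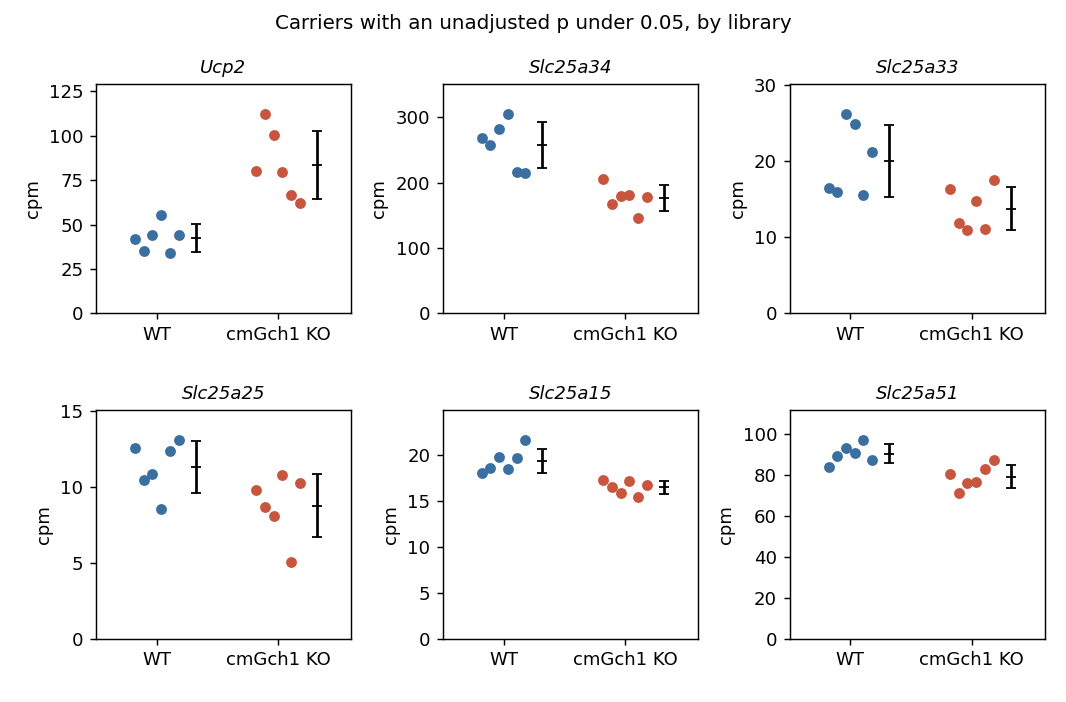
Level in cpm of the 6 carriers with an unadjusted p under 0.05, in each of 6 WT (blue) and 6 cmGch1 KO (red) libraries, with the mean and SD beside the points. The genotypes do not overlap for Ucp2, Slc25a34 and Slc25a15, and they overlap for Slc25a33, Slc25a25 and Slc25a51.

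The di- and tricarboxylate carriers and the iron and glutathione carriers had no member with an unadjusted p under 0.05. Slc25a10, the dicarboxylate carrier, was at 4.09 cpm per kb with a log2 fold change of 0.03 (SE 0.12, adjusted p = 0.967 by edgeR) that was 0.07 without the libraries with high Xist, the citrate carrier Slc25a1 was tested without a call, and Slc25a21, which carries oxodicarboxylates, had 0 to 3 counts. Slc25a39 ran from 103 cpm through 114 cpm to 138 cpm in WT and from 95.6 cpm through 115 cpm to 131 cpm in cmGch1 KO libraries, with a log2 fold change of -0.02 (SE 0.10, adjusted p = 0.974 by edgeR), and of -0.09 without the libraries with high Xist. Its homologue Slc25a40 and the mitoferrins Slc25a28 and Slc25a37, which import iron, lay between -0.05 and 0.04, with standard errorS of up to 0.11. At these errors small differences of either sign were not detectable.

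Slc25a34 (ENSMUSG00000040740) spans 141618824 to 141623821 on the minus strand of chromosome 4. Its level ran from 216 cpm through a median of 264 cpm to 305 cpm in WT and from 146 cpm through a median of 179 cpm to 206 cpm in cmGch1 KO libraries. No cmGch1 KO library reached the lowest WT library. The means were 258 ± 35.8 and 177 ± 19.7 cpm (SD, n = 6 each), so that 68.6% of the WT level was left. The log2 fold change was -0.54 (SE 0.10, adjusted p = 0.0156 by edgeR). The exact two-sided permutation test gave p = 0.00216, a value fixed by the separation of the libraries. Each of the 12 fits that left out 1 library kept an adjusted p under 0.05, with log2 fold changes of -0.59 to -0.49. Without cmGch1 KO replicates 2 and 3 the log2 fold change was -0.53 (SE 0.12) and the adjusted p was 0.105. With a covariate for sex-linked expression it was -0.53 with an adjusted p of 0.0717. The summed cardiomyocyte markers had a ratio of 0.920 between cmGch1 KO and WT means, 4 of the 5 were below 0 and none had an adjusted p under 0.05, and their part in the difference of Slc25a34 was not tested.

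The other genes without an assigned substrate had lower levels per length than Slc25a34. Slc25a35, Slc25a45, Slc25a46 and Slc25a47 were tested and had log2 fold changes from -0.17 to 0.10 without a call. Slc25a43 had 1 to 10 counts, Slc25a48 had 0 or 1 count, Slc25a53 had 22 to 66 counts and Slc25a54 had 0 counts in each library. Over the family, 3 of the 12 untested members exceeded 1 cpm in some library and 9 did not.

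**Figure D5:**
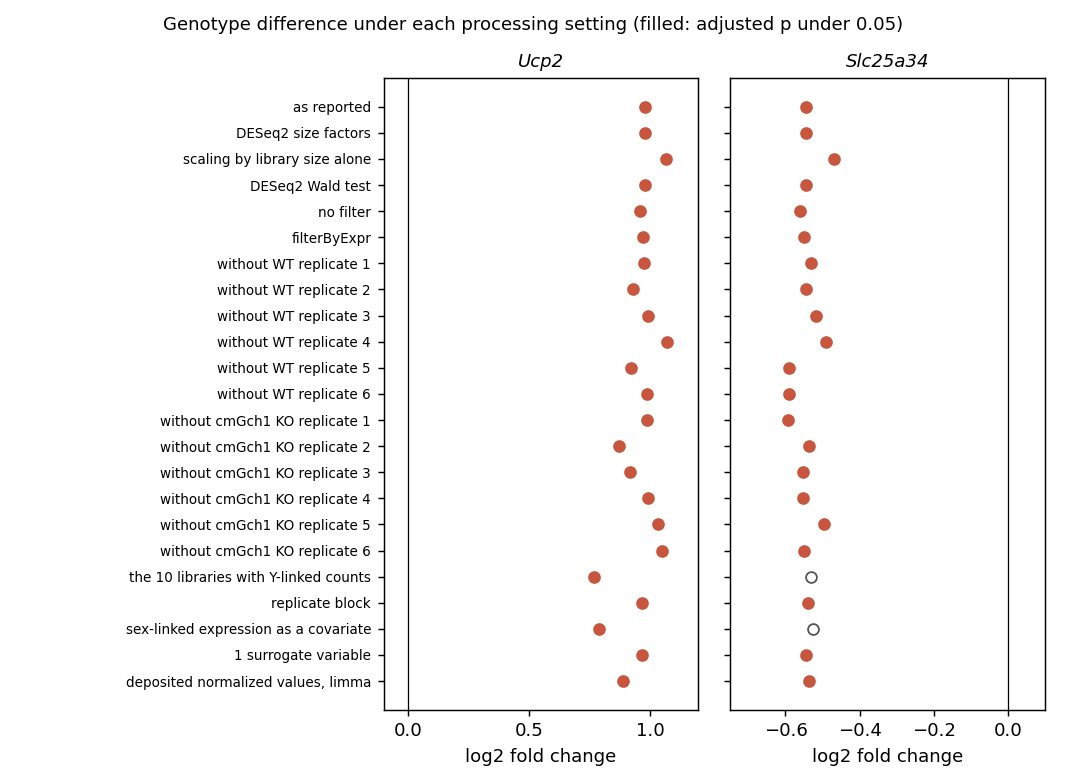
Log2 fold change of Ucp2 and Slc25a34 as reported and under each of 22 other processing settings, with filled points for an adjusted p under 0.05. Ucp2 is filled throughout, and Slc25a34 is open in the 10 libraries with Y-linked counts and with a covariate for sex-linked expression, at -0.53 in both.

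Other transporters of the mitochondrial membranes, such as the pyruvate carrier, the sideroflexins, the calcium uniporter and the voltage-dependent anion channels, were listed for comparison. Of 27 genes 24 were tested, and none had an adjusted p under 0.05. With a median of -0.07, 18 were below 0, beside 53.3% of all tested genes. The median was 0.01 with 11 below 0 when scaled by library size alone, beside 29.7% of all tested genes below 0. At an unadjusted p under 0.05, 3 were lower and 0 higher, beside 4.51% and 7.01% of all tested genes. These were Mcu, the pore of the calcium uniporter, with a log2 fold change of -0.19, Tmem65, an inner membrane protein of the heart, with -0.14, and Abcb8, an ABC transporter, with -0.13. The 5 carriers left out of the family here were each below 0 under both scalings, beside 53.3% and 29.7% of all tested genes. Of these carriers 1 had an adjusted p under 0.05, beside 1.12% of all tested genes.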

How the data were processed

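RNA of the left ventricle of 12 mice was analysed as 6 WT and 6 cmGch1 KO libraries, grouped by the genotype in the labels. The authors made stranded paired-end libraries with dUTP and deposited raw counts per Ensembl gene, made with HISAT2, Picard and featureCounts. The submitters' processing notes name HISAT2, SAMtools and the build GRCm38. The strand setting and the annotation of the counting are not given in the sources used here. A second table deposited by the authors holds normalized values on a log2-like scale and served only as an alternative. Symbols and coordinates came from GENCODE M21, which held 26582 of the 26921 identifiers, and exon lengths are of the union of exons.

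Counts were tested with edgeR 4.0.16 in R 4.3.3 (TMM, cpm over 3 in at least 6 libraries, quasi-likelihood test, Benjamini-Hochberg adjustment over all tested genes, FDR threshold 0.05). Values in cpm use TMM-scaled library sizes. Permutation tests on cpm ran over all 924 splits. A count of 0 was taken to allow 3 counts, 0.0827 to 0.139 cpm per library. Intervals of this kind cover counting error only, since reads carry no molecular identifiers. No pair of libraries of 1 genotype agreed within sampling noise (lowest chi-square per degree of freedom 12.5 over 30 pairs).

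The genes named with values were the members with an FDR or an unadjusted p under 0.05, the highest member per length of each class, Ucp1 to Ucp3 and the ADP/ATP carriers, members under the filter by their counts, other transporters with an unadjusted p under 0.05, Gch1 and the markers. Slc25a3, Slc25a22 and an adjusted p of Slc25a30 were given outside this rule. Of the tested members, 1 is not reported here by name. The members, classes and lists were chosen with earlier results of these data known. Alternatives were the size factors of DESeq2 1.42.0, scaling by library size alone, the DESeq2 Wald test, 2 other filters, each library left out, the 10 libraries with Y-linked counts, a block for the replicate number, a covariate for sex-linked expression or for 1 surrogate variable (sva 3.50.0), and limma 3.58.1 on the deposited log2 values. Same-numbered libraries are not paired by the labels and were not treated as pairs in the fit as reported. The correlation of their deviations was over 0.1 in 3 of 6 pairs, at 0.68, 0.40 and 0.51 for replicates 1, 5 and 6. For replicates 2, 3 and 4 it was between -0.13 and -0.08. Whether same-numbered libraries shared a litter or batch was not tested.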

Additional observations from a re-analysis of the deposited data

Results flagged for a closer look

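Of the 28 groups of values examined, 1 held a library that stood apart from the rest. Slc25a38, the glycine carrier, reached 35.3 cpm in cmGch1 KO replicate 1, against 21.6 to 25.6 cpm in the other 5 cmGch1 KO libraries, so that its gap to the next library was 0.703 of the range of the group, above Dixon's 95% critical value for 6 values. Chance gives such a gap in about 1 of 20 groups. The log2 fold change of Slc25a38 was between -0.34 and -0.15 when 1 library was left out, and none of these fits gave an adjusted p under 0.05 (lowest 0.137 by edgeR).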

How the results depend on the processing

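The members called lower numbered 1 as reported, 3 by the DESeq2 Wald test (Slc25a34, Slc25a33 and Slc25a15), 2 with 1 surrogate variable (Slc25a34 and Slc25a15), 0 in the 10 libraries with Y-linked counts and 0 with a covariate for sex-linked expression, the settings that called the fewest of all genes (38 and 64, against 126 as reported). Each fit without 1 library called 1 lower and 1 higher member. The single member called higher was Ucp2 in all 22 alternatives. The median log2 fold change of the tested members was 0.034 when scaled by library size alone, and between -0.07 and -0.03 when 1 library was left out. With the replicate block it was -0.05, Ucp2 (0.96, adjusted p = 0.0113 by edgeR) and Slc25a34 (-0.54, adjusted p = 0.00734) were still called, and 188 of all genes were called. Of the 12 libraries, 5 correlated best with their own number, and the block changed no call of a member. Scaled by library size alone, 36 of all genes were lower and 116 higher, against 50 and 76. Over all genes the calls numbered 373 by the DESeq2 Wald test, 636 with 1 surrogate variable and 74 to 216 when 1 library was left out.

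Among 14 members followed through the settings, signs turned for 4, and no setting called any of these 4. Slc25a39 was 0.0575 when scaled by library size alone and between -0.0635 and 0.0345 when 1 library was left out. Ucp3 was -0.14 in the 10 libraries, -0.054 with the replicate block, -0.0936 with sex-linked expression, -0.0541 on the deposited log2 values and between -0.22 and 0.28 when 1 library was left out. Slc25a22 was -0.0712 in the 10 libraries and -0.0628 with sex-linked expression, and Slc25a10 lay between -0.0541 and 0.0753 when 1 library was left out. The cause was not tested in any of these. Slc25a18 and Slc25a31, with at most 14 counts per library, were below the filter, and their cpm overlapped between the genotypes.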
